A study of Danio rerio with 3 samples.

Results

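The genes described here are 9 genes of the endoplasmic reticulum (ER) stress response, taken from a deposited table of 25386 zebrafish genes by their symbols. They are hspa5, hsp90b1, dnajc3a, creld2, herpud1, atf6, xbp1, ddit3 and atf3, and each symbol matched 1 row. The set was chosen by function with the FPKM values of these same libraries known, among them the log2 ratios of herpud1 and creld2 to control, so every comparison below is a description and none is a test.

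The ER is where secreted and membrane proteins fold. When unfolded proteins build up there, 3 sensors in its membrane respond: IRE1 (gene ern1) splices the messenger of the transcription factor XBP1, PERK (eif2ak3) slows translation and favours that of ATF4, and ATF6 is carried to the Golgi and cut to release a transcription factor. In mammals the resulting program raises chaperone genes such as HSPA5 and HSP90B1 and degradation genes such as HERPUD1, and under lasting stress the factor CHOP (DDIT3). The sensors are switched on at the protein or splicing level, and a gene-level value cannot separate spliced from unspliced xbp1.

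Poly(A) RNA came from whole dechorionated embryos of wild-type zebrafish (Danio rerio), in 3 libraries with 1 library per group. Control embryos, with no treatment given in the labels, were taken at dome stage, 4.3 hours post fertilisation (hpf), just after the embryo's own genome becomes active. The other libraries came from embryos whose yolk had received 0.65 ng of wheat germ agglutinin (WGA) at the 1-cell stage, in a volume of 1 nl. WGA is a lectin that binds sugars on nuclear pore proteins and hinders transport through the pore. One WGA library was taken at 4.3 hpf, matching the control in time, and its label gives no stage. The other was taken at 5 hpf, when the embryos had a dome-like shape. The study asked how a blocked pore affects activation of the embryo's genome. A mock injection of the control is not mentioned in the labels, nor is the number of embryos per library, so WGA and the injection itself cannot be told apart.

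Values are FPKM, the fragments of a gene divided by its transcript length and by the library's mapped fragments, which can be set side by side between genes. The file holds no read numbers, so the depth is unknown and no counting interval can be given. A ratio between libraries is the log2 ratio of (FPKM + 1), a pseudocount of 1 FPKM that understates the change of low genes, and folds are on this scale unless called plain FPKM ratios. A gene counts as measured in a comparison if it reaches 1 FPKM in 1 or both of its libraries. Between the WGA libraries the log2 ratios of all 13478 genes measured had a robust SD of 0.24, which contains 0.7 h of development and is the nearest available gauge of spread. Against control the robust SD was 0.55 for WGA at 4.3 hpf and 0.44 for WGA at 5 hpf. Each pools genes of all levels, so the spread of low genes alone is not known from it. Both comparisons with control use the same control library, taken at 4.3 hpf. WGA at 5 hpf is thus set against a control 0.7 h younger, and WGA and that time cannot be told apart there.

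Markers of each embryonic layer had values above 0 in every library, as for whole embryos, but in unequal amounts. All 8 enveloping layer markers were lower by 2-fold or more in WGA embryos at 4.3 hpf, with a summed level of 665.38 FPKM in control, 114.68 FPKM in the WGA library at 4.3 hpf and 248.28 FPKM in that at 5 hpf. The 7 yolk syncytial layer markers summed to 640.68, 93.11 and 194.22 FPKM in the same order, and the 5 germ layer markers to 287.94, 48.35 and 79.39 FPKM. Most of the yolk syncytial sum lay in 1 gene, apoeb, at 457.2, 55.99 and 132.69 FPKM. The 4 germ plasm markers summed to 243.59, 515.62 and 535.33 FPKM, a difference that lay in 1 of them, buc, at 70.66, 349.68 and 364.84 FPKM. No marker of these lists was at 0 in any library. In WGA at 4.3 hpf, however, sox32 (0.41 FPKM), slc26a1 (0.21 FPKM), hnf4a (0.76 FPKM) and afp4 (0.9 FPKM) were under 1 FPKM. In such bulk RNA, fewer cells of a type and less RNA per cell cannot be told apart. The levels of these markers thus differ between the groups together with every ratio to control given below. Whether the layers themselves differ, and their part in those ratios, was not tested.

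At the matched time of 4.3 hpf, herpud1 and creld2 stood above control by 2-fold or more, none of the 9 genes stood below it by that much, and the other 7 were within 2-fold. All 9 counted as measured. Among all 14263 genes measured in that pair, 7.21% were higher by 2-fold or more and 8.97% were lower. In WGA at 5 hpf, against the same control at 4.3 hpf, the genes higher by 2-fold or more were again herpud1 and creld2, with 0 of 9 lower. Of 14158 genes measured in that pair 5.3% were higher and 7.92% were lower. The sides of control differed between the times. At 4.3 hpf 6 of the 9 log2 ratios lay above 0 and their median was 0.26, whereas at 5 hpf 7 of the 9 lay below 0 and their median was -0.29. Scaling to ribosomal protein genes, described at the end, turned the sign of 2 of these ratios at 4.3 hpf (hsp90b1 and xbp1) and 3 at 5 hpf (hspa5, atf6 and atf3). The median over all genes measured was 0.03 at 4.3 hpf and -0.02 at 5 hpf.

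The 9 genes together made up 1243 TPM (the FPKM rescaled so that each library sums to 1000000) in control, 1577 TPM in WGA at 4.3 hpf and 1204 TPM in WGA at 5 hpf. In control their FPKM levels spanned 132-fold, in the order hspa5, hsp90b1, xbp1, herpud1, atf6, creld2, dnajc3a, atf3 and ddit3. In WGA embryos at 4.3 hpf herpud1 stood above xbp1 and creld2 above atf6. At 5 hpf herpud1 also stood above hsp90b1, with hspa5 alone above it, and atf3 was just above dnajc3a. With 1 library each, neighbours as close as creld2 and atf6 in the WGA libraries, or atf3 and dnajc3a at 5 hpf, cannot be ranked beyond error.

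**Figure D1:**
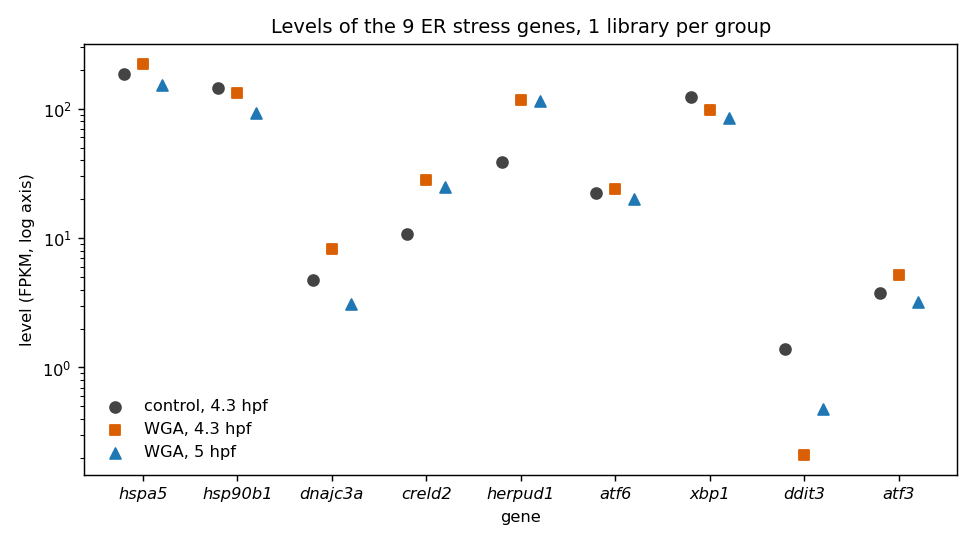
FPKM of each of the 9 genes on a log axis, 1 point per library (circle, control at 4.3 hpf; square, WGA at 4.3 hpf; triangle, WGA at 5 hpf). Both WGA points lie well above the control point for herpud1 (38.79 FPKM in control) and creld2 (10.66 FPKM in control), both lie below it for ddit3, and for dnajc3a the WGA points lie on opposite sides of control.

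Of the abundant chaperone genes hspa5 and hsp90b1, the first lay above control and the second below it at 4.3 hpf. Both lay below control at 5 hpf on the FPKM scale. The gene hspa5 (NCBI Gene 378848) encodes BiP, the main Hsp70 of the ER lumen, which also holds the sensors inactive. It was at 185.34 FPKM in control, 222.9 FPKM in WGA at 4.3 hpf and 150.91 FPKM in WGA at 5 hpf, the highest of the 9 genes in each library. Its log2 ratio to control was 0.26 at 4.3 hpf and -0.29 at 5 hpf, hardly more than the robust SD of 0.24 between the WGA libraries over all genes. The gene hsp90b1 (386590) encodes GRP94, the Hsp90 of the ER. It was at 144.38 FPKM in control, 131.25 FPKM in WGA at 4.3 hpf and 92.15 FPKM in WGA at 5 hpf, with log2 ratios to control of -0.14 and -0.64. Both genes were thus lowest in the 5 hpf library, 1.47-fold and 1.42-fold below the earlier WGA library.

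The co-chaperone gene dnajc3a (322544) encodes a J-domain partner of BiP whose mammalian counterpart also restrains PERK. It was at 4.7 FPKM in control, 8.23 FPKM in WGA at 4.3 hpf and 3.12 FPKM in WGA at 5 hpf. It was therefore high in the earlier WGA library and low in the later one, with log2 ratios to control of 0.70 and -0.47. Between the WGA libraries its log2 ratio was -1.16, 2.24-fold lower at 5 hpf, and only 21 of the 13478 genes measured in that pair had a lower ratio. It was the 1 gene lower by 2-fold or more among the 8 of the 9 measured in that pair, where 0.356% of all genes were lower. None of the 8 was higher, where 0.772% of all genes were. Its paralog dnajc3b did not show this size of difference, at 6.2 FPKM in control, 6.61 FPKM in WGA at 4.3 hpf and 5.28 FPKM in WGA at 5 hpf. At such low levels and unknown depth, counting error may be large for both paralogs, and RSEM, if it made these values, divides reads shared by paralogs by estimate.

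The gene creld2 (393495) encodes a small cysteine-rich ER protein that in mammals is induced by ER stress. It was at 10.66 FPKM in control, 28.07 FPKM in WGA at 4.3 hpf and 24.92 FPKM in WGA at 5 hpf. Both WGA libraries were high, and they differed from each other by a log2 ratio of -0.17, within the gauge of spread. The log2 ratio to control was 1.32 (2.49-fold) at 4.3 hpf and 1.15 (2.22-fold) at 5 hpf, with 488 and 553 genes having a higher ratio. Its relative creld1 (listed for creld1b), encoding a membrane protein of the same family, was at 3.3, 3.35 and 2.78 FPKM in control, WGA at 4.3 hpf and WGA at 5 hpf. The other copy, creld1a, was under 1 FPKM in each library.

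The highest log2 ratio to control among the 9 genes belonged to herpud1 (565499), which encodes an ER membrane protein of the machinery that extracts misfolded proteins for the proteasome. It was at 38.79 FPKM in control, 115.6 FPKM in WGA at 4.3 hpf and 115.3 FPKM in WGA at 5 hpf. The WGA libraries were almost equal, and both were high. The log2 ratio to control was 1.55 at both times, 2.93-fold and 2.92-fold higher. At 4.3 hpf 2.08% of the genes measured had a higher ratio, and at 5 hpf 1.61% did. Its paralog herpud2 lay close to control, at 5.85 FPKM in control, 6.66 FPKM in WGA at 4.3 hpf and 4.67 FPKM in WGA at 5 hpf.

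Other genes of ER-associated degradation lay on both sides of control. Apart from herpud1, 2 of 44 measured genes (4.55%) were higher by 2-fold or more at 4.3 hpf and 0 were lower, beside 7.21% and 8.97% of all genes, and the median log2 ratio was 0.16, with an SD of 0.44 over the genes. These were tmub1 and ube2g2, encoding a ubiquitin-like membrane protein and a ubiquitin-conjugating enzyme of this pathway. The gene tmub1 was at 30.81 FPKM in control, 68.48 FPKM in WGA at 4.3 hpf and 57.41 FPKM in WGA at 5 hpf. The gene ube2g2 was at 27.29, 55.6 and 63 FPKM in the same order, with a log2 ratio at 4.3 hpf of 1.00, right at the limit. At 5 hpf 1 of 44 was higher (ube2g2, 2.26-fold) and 1 was lower, dnajb12b, which encodes a J-domain membrane protein, 2.10-fold (median 0.05, SD 0.44). Each is 2.27% of the list, beside 5.3% of all genes higher and 7.92% lower. The more abundant paralog of dnajb12b, dnajb12a, was at 83.93 FPKM in control, 92.31 FPKM in WGA at 4.3 hpf and 93.31 FPKM in WGA at 5 hpf. At 1.5-fold 10 of the 44 were higher and 0 were lower at 4.3 hpf, beside 18.1% and 15.3% of all genes. At 5 hpf 8 were higher and 1 was lower at 1.5-fold, beside 13.3% and 15%. Genes of the membrane complex that herpud1 serves differed among themselves, and those named here were picked after their values were seen. The ligase gene syvn1 was at 121.95, 141.12 and 125.38 FPKM and its partner gene sel1l at 49.1, 47.88 and 47.98 FPKM in control, WGA at 4.3 hpf and WGA at 5 hpf. Its membrane partner gene vimp (selenos) was at 16.56, 32.5 and 32.07 FPKM and fam8a1a at 1.04, 2.83 and 2.25 FPKM, higher in both WGA libraries without reaching 2-fold on the scale used. In control fam8a1a lay close to the limit of 1 FPKM. Its more abundant paralog fam8a1b was at 8.34, 10.28 and 6.78 FPKM, above control and then below it. The listed genes derl1, at 43.34, 38.07 and 37.69 FPKM, and derl2, at 59.17, 56.89 and 55.91 FPKM, were slightly below control at both times.

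Messenger levels of the sensor genes and of xbp1 lay within 1.5-fold of control. The sensor gene atf6 (558071) was at 22.4 FPKM in control, 23.79 FPKM in WGA at 4.3 hpf and 20 FPKM in WGA at 5 hpf, with log2 ratios to control of 0.08 and -0.16. Both lay within the gauge of spread. Its paralog atf6b was at 13.42, 12.63 and 9.11 FPKM in the same order. The IRE1 gene ern1 was at 5.94, 7.65 and 7.84 FPKM, and the PERK gene eif2ak3 at 17.56, 23 and 15.7 FPKM. The genes atf6, atf6b and eif2ak3 were lowest in WGA at 5 hpf, whereas ern1 was lowest in control. The gene xbp1 (140614), the target of IRE1, was at 123.49 FPKM in control, 97.31 FPKM in WGA at 4.3 hpf and 84.95 FPKM in WGA at 5 hpf. Both WGA libraries were below control, with log2 ratios of -0.34 and -0.53, although under ribosomal protein scaling the earlier was above it. It was among the top 5% of genes at FPKM of at least 1 in control, where 4.61% of them were higher.

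The gene ddit3 was scarce in every library and scarcer in the WGA libraries, and atf3 was low and near control. The gene ddit3 (561924), encoding CHOP, was at 1.4 FPKM in control, 0.21 FPKM in WGA at 4.3 hpf and 0.48 FPKM in WGA at 5 hpf. Control was the highest of the 3 and the only library above 1 FPKM. The log2 ratio to control was -0.99 at 4.3 hpf and -0.70 at 5 hpf, while the plain FPKM ratios were 6.67-fold and 2.92-fold lower. At these levels the size of the difference is set largely by the pseudocount. The gene atf3 (393939), a stress-induced repressor of the ATF family, was at 3.79 FPKM in control, 5.22 FPKM in WGA at 4.3 hpf and 3.19 FPKM in WGA at 5 hpf. Its log2 ratios to control were 0.38 and -0.19.

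The copies of ATF4, the factor that in mammals drives DDIT3 and ATF3, were well below control. The gene atf4a was at 38.95 FPKM in control, 9.23 FPKM in WGA at 4.3 hpf and 14.82 FPKM in WGA at 5 hpf, 3.91-fold and 2.53-fold lower. The gene atf4b was at 21.41, 2.67 and 4.52 FPKM in the same order, 6.11-fold and 4.06-fold lower. Both copies were lowest in the WGA library at 4.3 hpf. In the list of sensors and signal transducers without the 9 genes, 3 of 20 (15%) were lower by 2-fold or more at each time, beside 8.97% of all genes at 4.3 hpf and 7.92% at 5 hpf. They were atf4a, atf4b and ppp1r15a. The last encodes the phosphatase subunit that reverses the action of PERK and was at 20.37, 6.65 and 6.81 FPKM. At 4.3 hpf 1 of the 20 (5%) was higher, creb3l2, which encodes an ER-membrane transcription factor (2.31-fold), and 0 were higher at 5 hpf. Of all genes 7.21% were higher at 4.3 hpf and 5.3% at 5 hpf. The list medians were 0.06 (SD over genes 0.96) and -0.15 (SD 0.79). At 1.5-fold 3 of the 20 were higher and 4 lower at 4.3 hpf, beside 18.1% and 15.3% of all genes. At 5 hpf 3 were higher and 5 lower at 1.5-fold, beside 13.3% and 15%.

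Target genes of ATF4 and CHOP lay on both sides of control. Without ddit3 and atf3, 2 of 28 (7.14%) were higher by 2-fold or more at 4.3 hpf and 2 (7.14%) were lower, near the 7.21% and 8.97% of all genes (median -0.26, SD 0.93). Those above were atf5a, a stress factor gene of the ATF4 family, at 6.29 FPKM in control, 27.74 FPKM in WGA at 4.3 hpf and 29.58 FPKM in WGA at 5 hpf, and ddit4, an inhibitor gene of growth signalling, at 104.27, 263.19 and 208.03 FPKM. Those below were cebpb, a bZIP factor gene, at 80.05, 11.44 and 16.2 FPKM, and slc3a2b, an amino acid transporter subunit gene, at 19.01, 2.49 and 10.71 FPKM. At 5 hpf 1 of 29 was higher (atf5a, 4.19-fold) and 1 was lower (cebpb, 4.71-fold), with a median of -0.14 (SD 0.71). Each is 3.45% of the list, beside 5.3% of all genes higher and 7.92% lower. At 1.5-fold 4 of the 28 were higher and 8 lower at 4.3 hpf, beside 18.1% and 15.3% of all genes. At 5 hpf 3 of the 29 were higher and 4 lower at 1.5-fold, beside 13.3% and 15%. The transporter gene slc3a2b was 3.36-fold higher at 5 hpf than at 4.3 hpf within WGA embryos. It was the 1 gene of 28 (3.57%) in this list past 2-fold between them, where 0.772% of all genes were higher and 0.356% lower.

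Ratios within a library do not depend on how libraries are scaled to each other. Relative to hspa5 in the same library, herpud1 stood at 20.9% in control, 51.9% in the WGA library at 4.3 hpf and 76.4% in that at 5 hpf. The share of creld2 was 5.75%, 12.6% and 16.5% in the same order. For both genes each WGA library was above control, and the later one above the earlier. In FPKM neither gene was higher in the later WGA library. From 4.3 to 5 hpf herpud1 was at 115.6 and 115.3 FPKM, creld2 at 28.07 and 24.92 FPKM and hspa5 at 222.9 and 150.91 FPKM. The shares of hsp90b1 were 77.9%, 58.9% and 61.1%, and those of xbp1 were 66.6%, 43.7% and 56.3%, so that these abundant genes were lower relative to hspa5 in each WGA library. The sensor gene atf6 stood at 12.1%, 10.7% and 13.3%. Such ratios show that genes differed unequally, not which of them differed.

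**Figure D2:**
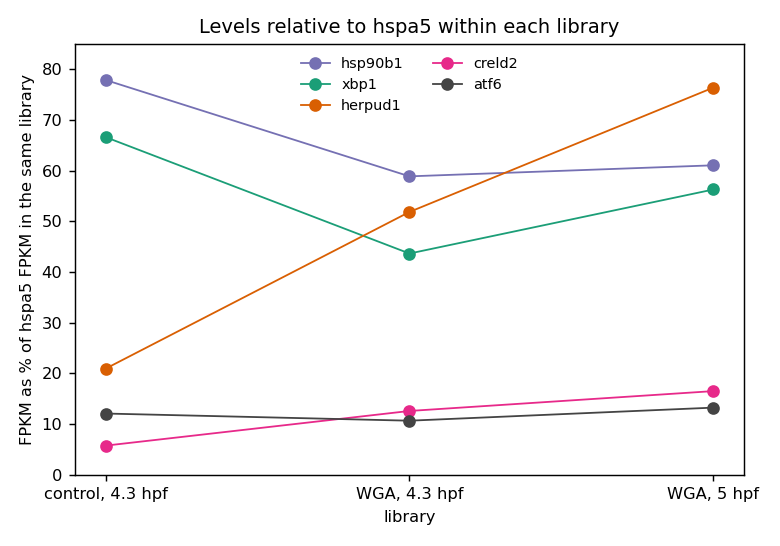
FPKM of 5 of the genes as a percentage of hspa5 FPKM in the same library, 1 point per library, with lines joining the points of a gene. The share of herpud1 is 20.9% in control and 76.4% in WGA at 5 hpf, above those of xbp1 and hsp90b1, while atf6 stays between 10.7% and 13.3%.

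Of 31 other measured chaperone genes, 0 were higher and 2 (6.45%) were lower by 2-fold or more at each time (medians -0.07 at 4.3 hpf and -0.06 at 5 hpf, SD 0.62 and 0.49). Of all genes 7.21% were higher and 8.97% lower at 4.3 hpf, and 5.3% and 7.92% at 5 hpf. Lowest at both times was serpinh1b, which encodes a collagen chaperone, at 5.26 FPKM in control, 0.69 FPKM in WGA at 4.3 hpf and 1.06 FPKM in WGA at 5 hpf. The other at 4.3 hpf was the prolyl isomerase gene fkbp7 (3.19-fold) and the other at 5 hpf was mesdc2 (2.64-fold), a chaperone gene for Wnt co-receptors. Like dnajc3a, the stress-inducible J-domain gene dnajb9b was highest in WGA at 4.3 hpf, at 2.95, 6.58 and 3.18 FPKM in control, WGA at 4.3 hpf and WGA at 5 hpf. The gene manf, encoding a secreted ER stress-inducible factor, was at 40.47, 77.9 and 65.77 FPKM. The large Hsp70-like chaperone gene hyou1, named after its values were seen, was at 139.51, 186.62 and 163.88 FPKM. These last 3 genes were above control in both WGA libraries, dnajb9b barely so at 5 hpf, without reaching 2-fold. They do not stand for the list, in which 12 log2 ratios were above 0 and 18 below it at 4.3 hpf. At 5 hpf 12 were above 0 and 19 below it. At 1.5-fold 3 of the 31 other chaperone genes were higher and 4 lower at 4.3 hpf, beside 18.1% and 15.3% of all genes. At 5 hpf 1 was higher and 4 were lower at 1.5-fold, beside 13.3% and 15%.

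Among 22 disulfide and redox enzyme genes, 1 (4.55%) was higher by 2-fold or more at each time and 0 were lower (medians -0.10 and -0.19, SD 0.49 and 0.46). Of all genes 7.21% were higher and 8.97% lower at 4.3 hpf, and 5.3% and 7.92% at 5 hpf. The higher gene was ero1a, the oxidase gene that supplies disulfide bonds, at 2.72 FPKM in control, 9.84 FPKM in WGA at 4.3 hpf and 8.18 FPKM in WGA at 5 hpf. Its paralog ero1b was at 10.47, 10.38 and 5.76 FPKM in the same order. The disulfide isomerase gene pdia4 was at 34.6, 69.71 and 46.66 FPKM, just under 2-fold above control at 4.3 hpf, and pdia6 was at 159.51, 117.35 and 96.72 FPKM. On the FPKM scale pdia4 and pdia6 thus lay on different sides of control at both times. The paralog ero1b was level with control at 4.3 hpf (log2 ratio -0.01) and below it only at 5 hpf (-0.76), where ero1a was above. At 1.5-fold 2 of the 22 were higher and 1 was lower at 4.3 hpf, beside 18.1% and 15.3% of all genes. At 5 hpf 1 was higher and 3 were lower at 1.5-fold, beside 13.3% and 15%.

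Genes of entry into the ER, glycosylation and exit are set beside 7.21% of all genes higher and 8.97% lower by 2-fold or more at 4.3 hpf, and 5.3% and 7.92% at 5 hpf. For translocation and signal cleavage 1 of 37 genes (2.70%) was lower at each time and 0 were higher (medians -0.14 and -0.11, SD 0.39 and 0.35). In that list 28 of 37 log2 ratios were below 0 at 4.3 hpf and 30 of 37 at 5 hpf, where the medians of all genes were 0.03 and -0.02. These signs depend on scaling. Under ribosomal protein scaling the list median at 4.3 hpf was 0.59, beside 0.67 over all genes. On the FPKM scale 0 of the 37 were higher by 1.5-fold and 5 were lower at each time. Of all genes 18.1% were higher and 15.3% lower by 1.5-fold at 4.3 hpf, and 13.3% and 15% at 5 hpf. The gene lower by 2-fold or more was sec61g, a subunit gene of the translocation channel, at 75.91 FPKM in control, 21.84 FPKM in WGA at 4.3 hpf and 25.09 FPKM in WGA at 5 hpf. For N-glycosylation 1 of 41 (2.44%) was higher at each time and 0 were lower (medians 0.07 and -0.04, SD 0.42 and 0.44). At 1.5-fold 9 of the 41 were higher and 0 lower at 4.3 hpf, beside 18.1% and 15.3% of all genes. At 5 hpf 5 were higher and 2 lower at 1.5-fold, beside 13.3% and 15%. The gene past 2-fold was gnpnat1, whose enzyme acts in the synthesis of N-acetylglucosamine, the sugar unit that WGA binds, at 4.66, 12.19 and 16.05 FPKM in the same order. For ER exit and early traffic 2 of 59 (3.39%) were higher at each time and 0 were lower (medians -0.03 and -0.06, SD 0.38 for both). These were the vesicle coat genes sec24c, at 43.25, 100.06 and 92.08 FPKM, and sar1ab, at 5.27, 11.99 and 13.25 FPKM. The paralog sar1b, more abundant than sar1ab in every library, was at 87.49, 70.3 and 83.69 FPKM, below control at both times. At 1.5-fold 6 of the 59 were higher and 0 lower at 4.3 hpf, beside 18.1% and 15.3% of all genes. At 5 hpf 4 were higher and 4 lower at 1.5-fold, beside 13.3% and 15%.

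Of 25 ER calcium genes 2 (8%) were higher and 1 (4%) was lower by 2-fold or more at 4.3 hpf (median 0.13, SD 0.58). At 5 hpf 1 (4%) was higher and 0 were lower (median -0.11, SD 0.50). The shares of all genes were 7.21% higher and 8.97% lower at 4.3 hpf, and 5.3% and 7.92% at 5 hpf. At 1.5-fold 3 of the 25 were higher and 1 was lower at 4.3 hpf, beside 18.1% and 15.3% of all genes. At 5 hpf 1 was higher and 1 was lower at 1.5-fold, beside 13.3% and 15%. The gene atp2a2a, encoding a pump that fills the ER with calcium, was at 20.49 FPKM in control, 78.73 FPKM in WGA at 4.3 hpf and 74.03 FPKM in WGA at 5 hpf. Like herpud1 it was high and nearly level in both WGA libraries, at 3.71-fold and 3.49-fold above control. Its paralog atp2a2b was more abundant in every library and near control, at 138.23, 127.27 and 131.54 FPKM in the same order. The calcium release channel gene itpr2 was at 3.75, 8.53 and 4.8 FPKM, and the calcium-binding protein gene rcn1 at 2.76, 0.54 and 1.03 FPKM.

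Over the 9 lists pooled and without the 9 genes, 11 of 307 measured genes were higher by 2-fold or more at 4.3 hpf (3.58%) and 9 were lower (2.93%), beside 7.21% and 8.97% of all genes. At 5 hpf 7 of 308 were higher (2.27%) and 8 were lower (2.60%), beside 5.3% and 7.92%. The pooled medians were -0.04 and -0.07, beside 0.03 and -0.02 over all genes. Between the WGA libraries 2 of 306 (0.654%) were higher by 2-fold or more, serpinh1a and slc3a2b, and 0 were lower. The gene serpinh1a was at 0.38 FPKM in WGA at 4.3 hpf and 1.96 FPKM in WGA at 5 hpf. It counted as measured in that pair through the 5 hpf library alone. Of all genes in that pair 0.772% were higher and 0.356% were lower. Whether these shares differ from those of all genes was not tested.

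**Figure D3:**
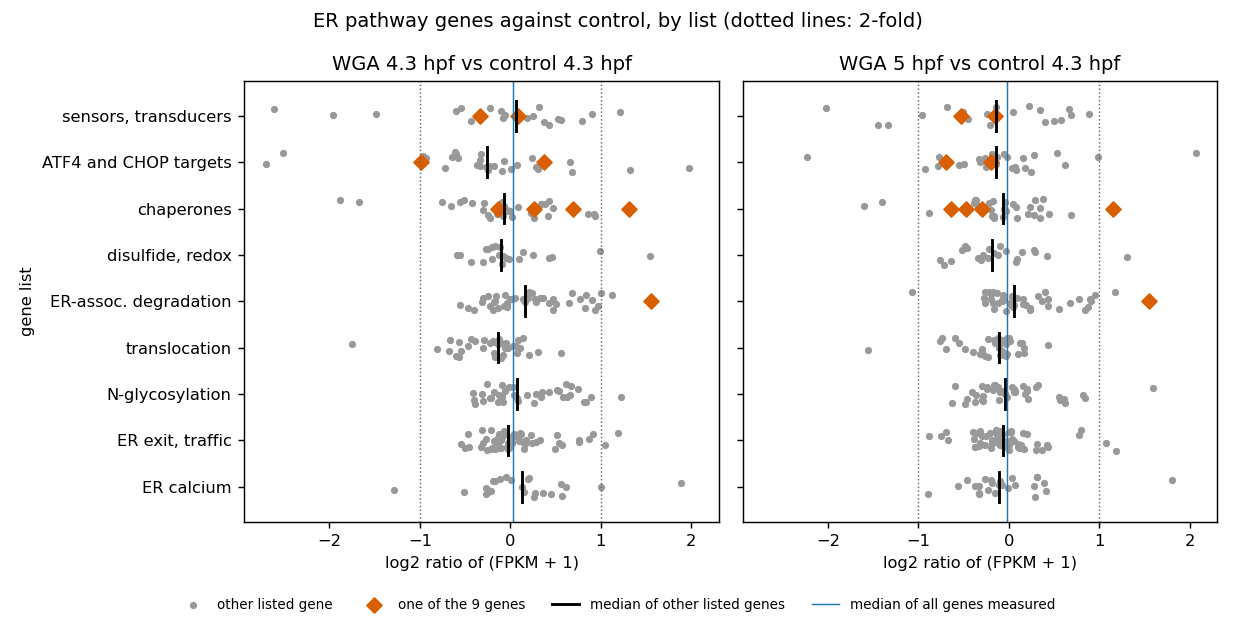
Log2 ratios of (FPKM + 1) to control of the genes in 9 ER pathway lists, for WGA at 4.3 hpf (left) and WGA at 5 hpf (right), 1 point per gene. Diamonds mark the 9 genes, black bars the median of the other genes of a list, the blue line the median of all genes measured and dotted lines 2-fold; herpud1 at 1.55 in both panels is the highest point of the degradation list.

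Other genes had a pattern like that of herpud1. Likeness was measured as the distance between pairs of log2 ratios to control, at 4.3 and 5 hpf, over the 3 libraries and 8298 genes with a gene symbol that reached 5 FPKM in 1 or more of them. Nearest was fxn, the frataxin gene, at 15.36, 47.37 and 46.47 FPKM in control, WGA at 4.3 hpf and WGA at 5 hpf (distance 0.02). The next were arrdc1a and dok1b, and 133 of the 8298 genes lay within a distance of 0.25. For ddit3, which had the lowest ratio of the 9 at 4.3 hpf, the nearest were grpel2, sfpq and cxcl12b, and 90 genes lay within 0.25. The splicing factor gene sfpq, for example, was at 260.29, 127.16 and 159.66 FPKM, far above the level of ddit3. Its plain FPKM ratio at 4.3 hpf was also far smaller than the 6.67-fold of ddit3, so that the likeness to ddit3 holds on the scale with a pseudocount of 1 and is set by it.

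The direction of several small ratios depended on scaling. If the libraries are scaled so that ribosomal protein genes are level, the median of all genes moves to 0.67 at 4.3 hpf and 0.32 at 5 hpf. On that scale hsp90b1 and xbp1 lay above control at 4.3 hpf, at log2 ratios of 0.60 and 0.39, both below the shifted median. All genes then split into 4231 higher and 814 lower by 2-fold or more at 4.3 hpf, against 1028 and 1280 on the FPKM scale. At 5 hpf they split into 1626 and 820, against 751 and 1122. The genes higher by 2-fold or more among the 9 then numbered 4 at 4.3 hpf, with dnajc3a at 1.37 and atf3 at 1.02 beside herpud1 and creld2. For hspa5, atf6 and atf3 the sign at 5 hpf was also turned, since they lay just above control on that scale, at 0.09, 0.21 and 0.11. Counted at 1.5-fold instead, 3 of the 9 genes were higher and 1 was lower at 4.3 hpf, beside 18.1% and 15.3% of all genes. At 5 hpf 2 were higher and 2 lower, beside 13.3% and 15%, and between the WGA libraries 0 of 8 were higher and 1 was lower, beside 2.26% and 4%. Over the 8 settings of pseudocount, filter and scaling, herpud1 ranged from 1.46 to 2.28 at 4.3 hpf and from 1.46 to 1.93 at 5 hpf, and creld2 from 1.08 to 2.03 and from 0.93 to 1.52. Where it had a value, the ratio of ddit3 ranged from -2.27 to -0.30 at 4.3 hpf and from -1.37 to -0.22 at 5 hpf. A pseudocount or filter cannot turn the sign of a ratio, so only the scalings could have turned it, and none did. On the FPKM scale ddit3 counted as measured against control through the control library alone.

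**Figure D4:**
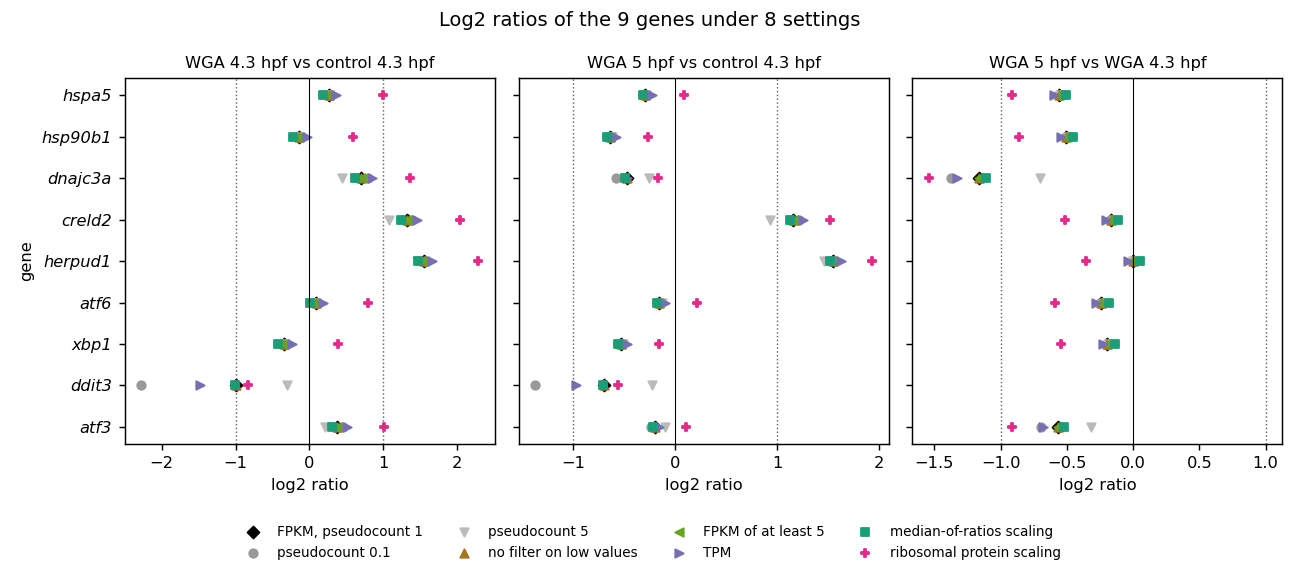
Log2 ratios of the 9 genes in the 3 comparisons under 8 settings, 1 symbol per setting (black diamond, FPKM with a pseudocount of 1), with dotted lines at 2-fold; ddit3 is left out of the right panel, as it was under 1 FPKM in both WGA libraries and so not measured in that pair on the FPKM scale. Only the symbols of ribosomal protein scaling cross 0 for hspa5, hsp90b1, atf6, xbp1 and atf3, while herpud1 and creld2 lie at 0.93 or more against control under all 8 settings.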

How the data were processed

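Each of the 3 libraries is 1 column of a table of FPKM values that the authors deposited, rounded to 2 decimals, for 25386 genes with their NCBI Gene numbers and symbols. Per the submitters' processing notes, RSEM 1.2.8, Bowtie2 2.2.5, Trimmomatic 0.36 and the build GRCz11 were used, with no roles or settings given; annotation and any scaling between libraries are not given in the sources used here. Columns were matched to libraries by name. FPKM carries no read numbers, so depth and counting error are unknown. With 1 library per group no p-value was computed.

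Log2 ratios of (FPKM + 1) were computed with Python 3.11.15, pandas 2.3.3 and numpy 2.4.6. The calculation was run on copies of the control values with known changes and no noise. That checks the arithmetic alone, not low values or the spread between libraries. Genes that reached 1 FPKM in 1 or both libraries of a pair were counted at 2-fold. The 9 genes and the lists (401 entries, of which 388 matched, 30 of them by newer or alternative names from NCBI's gene table for assembly GRCz12tu) were chosen with earlier results of these data known. Named genes are the 9, the 2 highest and 2 lowest of each list per comparison at 1.5-fold or more, paralogs, sensors and the 3 nearest patterns; not all are printed. The genes syvn1, sel1l, vimp, fam8a1a, fam8a1b, derl1, derl2, dnajb12a, sar1b, atp2a2b and hyou1 were named after their values were seen. Alternatives were pseudocounts of 0.1 and 5, no filter and a filter at FPKM 5, TPM, median-of-ratios and ribosomal protein scaling, and 1.5-fold.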

Additional observations from a re-analysis of the deposited data

Results flagged for a closer look

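The log2 ratio to control had opposite signs at 4.3 and 5 hpf for 4 of the 9 genes and for alg9 and serpinh1a, the named list genes that also reached 1.5-fold against control at 1 of the times. Further listed genes outside this choice also had opposite signs. There was 1 library at each time, so the difference was not tested and both ratios share the control library. The change from 4.3 to 5 hpf was -1.16 for dnajc3a, -0.56 for hspa5, -0.57 for atf3 and -0.24 for atf6, all above control at 4.3 hpf and below it at 5 hpf. It was -0.67 for alg9, a glycan assembly enzyme gene (0.04 and -0.63), and 1.10 for the collagen chaperone gene serpinh1a (-0.65 and 0.45). For atf6 the change is within the robust SD of 0.24 over genes between the WGA libraries. Under ribosomal protein scaling hspa5, atf6 and atf3 lay above control at both times.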

How the results depend on the processing

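In both comparisons with control, herpud1 and creld2 were higher by 2-fold or more under every alternative except a pseudocount of 5, which left 1 of the 9 genes (herpud1) higher at 5 hpf. Ribosomal protein scaling gave 4 of 9 higher at 4.3 hpf, beside 4231 of 14898 among all genes. The count of genes lower than control moved from 0 to 1 (ddit3) at 4.3 hpf with a pseudocount of 0.1, TPM, median-of-ratios scaling and 1.5-fold. Of all genes 1794 of 14263, 1782 of 16398, 1356 of 14228 and 2180 of 14263 were lower, in that order. At 5 hpf the count moved to 1 with a pseudocount of 0.1 and to 2 with 1.5-fold, beside 1696 and 2126 of 14158 among all genes. Between the WGA libraries a pseudocount of 5 left 0 of the 8 measured genes lower in place of 1 (dnajc3a), beside 6 of 13478 among all genes.

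For the other listed ER genes, counts are given as higher and lower than control by 2-fold or more. At 4.3 hpf, instead of 11 and 9 of 307, they were 17 and 15 with a pseudocount of 0.1, 5 higher with a pseudocount of 5, and 40 and 23 at 1.5-fold. With TPM 22 of 318 were higher, beside 1620 of 16398 among all genes. With ribosomal protein scaling 73 of 311 were higher, beside 4231 of 14898 among all genes. All 14263 genes gave 1506 and 1794 with a pseudocount of 0.1, 475 higher with a pseudocount of 5, and 2587 and 2180 at 1.5-fold. At 5 hpf, instead of 7 and 8 of 308, they were 13 lower with a pseudocount of 0.1, 5 lower with a pseudocount of 5, 11 higher with TPM, 22 higher with ribosomal protein scaling, and 26 and 29 at 1.5-fold. Among all genes 1696 and 442 of 14158 were lower with pseudocounts of 0.1 and 5. Higher were 1077 of 16318 with TPM and 1626 of 14486 with ribosomal protein scaling. At 1.5-fold 1876 and 2126 of 14158 were counted. Between the WGA libraries, instead of 2 and 0 of 306, they were 4 and 3 with a pseudocount of 0.1, 1 higher with a pseudocount of 5 or a filter at FPKM 5, 1 lower with TPM, 12 lower with ribosomal protein scaling, and 6 and 12 at 1.5-fold. All 13478 genes of that pair gave 207 and 158 with a pseudocount of 0.1, 18 higher with a pseudocount of 5, and 304 and 539 at 1.5-fold. With a filter at FPKM 5, 49 of 9415 genes were higher. Lower were 140 of 15610 with TPM and 387 of 14421 with ribosomal protein scaling. The median of the listed genes under that scaling was 0.65 at 4.3 hpf, 0.29 at 5 hpf and -0.38 between the WGA libraries. Over all genes it was 0.67, 0.32 and -0.37. A larger pseudocount or a higher fold counts fewer genes by construction, and a scaling moves every ratio of a library; no other cause was tested. Shifts of values were judged against the robust SD of 0.24 between the WGA libraries. No paired analysis was possible because each group has 1 library, and no library could be left out. Among the 9 genes unknown depth limits ddit3, atf3 and dnajc3a most, and it also limits low listed genes such as serpinh1a.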
